A study of Homo sapiens with 6 samples.

Results

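Genes that p53 is known to switch on directly, other than those of the cell cycle arrest, DNA repair and BCL2 or death receptor programmes, were examined in COV434 cells, a human cell line that the sample labels call granulosa cells. The list held 50 genes, of the 16798 in the gene table, and its members were taken by gene symbol. Total RNA of 6 samples was sequenced, namely 3 control samples and 3 samples exposed to 15 µM 4HC for 24 h. 4HC is a pre-activated form of cyclophosphamide (CTX), an alkylating drug that damages the ovary. Both groups were of the same line and of wild type genotype by the labels, the sources do not say what vehicle the controls received, and nothing states that the 3 samples of a group were separate cultures. The p-values below therefore measure the spread between these samples, which may be technical.

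The transcription factor p53 is held at a low level in unstressed cells, because its target MDM2 marks it for degradation. DNA damage, such as the cross-links left by an alkylating drug, activates kinases that stabilise p53, which then binds paired copies of a short palindromic element near its target genes. CDKN1A, which stops the cell cycle, and the BCL2 family genes are the targets described most often. The genes described here carry out other tasks that p53 is known for, such as growth restraint, secreted signals, redox and lipid metabolism, RNA binding and protein turnover.

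The depth was alike, with 16133786 to 16702316 expected counts in a sample, and 12368 genes had enough counts for edgeR's quasi-likelihood test. The granulosa markers FOXL2, FSHR, CYP19A1, NR5A1, STAR, GATA4 and LHCGR were each under 10 counts over all 6 samples. AMH and HSD17B1 were at 5.34 and 22.5 TPM in control, where TPM is transcripts per 1000000, a level per transcript length. Of the 12 granulosa markers, AMHR2 had no row, and 3 of the other 11 were above 1 TPM on average. The markers at or near 0 go against the label, whereas AMH and HSD17B1 go with it. Of the 12 granulosa markers, the 7 stromal and theca markers, the 6 blood and endothelial markers and the 5 epithelial markers, 10 could be tested and none was called, nor had an unadjusted p under 0.05 (edgeR). The summed level was 24.2 to 33.4 TPM in control and 28.0 to 29.3 TPM in 4HC for the granulosa markers, and 454 to 474 and 457 to 462 TPM for the stromal and theca markers, among which ACTA2, COL3A1, LUM and DCN were expressed. It was 0.54 to 1.75 and 0.8 to 2.09 TPM for the blood and endothelial markers, and 6.36 to 8.57 and 7.72 to 8.16 TPM for the epithelial markers.

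Of the 50 genes, 48 had a row in the gene table, while GLS2 and PADI4 were not analysed here. PRDM1, the transcriptional repressor BLIMP1, had 3 counts over all samples and was not expressed at this depth. TRIM22, with 40 summed counts, and TSPAN11, with 46, stayed under the filter on low counts. In the deposited annotation, 4 of the genes, TP53I3, PIDD1, ZMAT3 and PERP, belong to the KEGG p53 signaling pathway. The deposited intervals of 924 genes of the table were over 2500000 bases long and were left out as unreliable, none of them a gene of the list. Of the 48 genes, 15 overlapped the interval of at least 1 remaining gene, among them TP53I3, APOBEC3C and ANKRA2. Whole intervals on either strand were compared, without regard to exons. Whether reads were counted by strand is not given in the sources used here, so how far such genes share reads is not known. The remaining 45 genes were tested, and 41 had at least 1000 summed counts. In 4HC, 41 of the 45 were higher, 3 were lower and 1, PERP, was not called (edgeR, Benjamini-Hochberg adjusted p under 0.05 over all 12368 genes tested). Of all genes tested, 19.2% were higher and 17.1% were lower, so the share of the p53 targets that rose, 91.1%, was above this background. The list was chosen with earlier results of these data known, so this excess describes the list and is not separate evidence. The median log2 fold change of the 45 genes was 0.61, between -0.36 and 2.12, against a median of 0.00 over all genes tested. The plot of fold change distributions shows this shift.

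**Figure D1:**
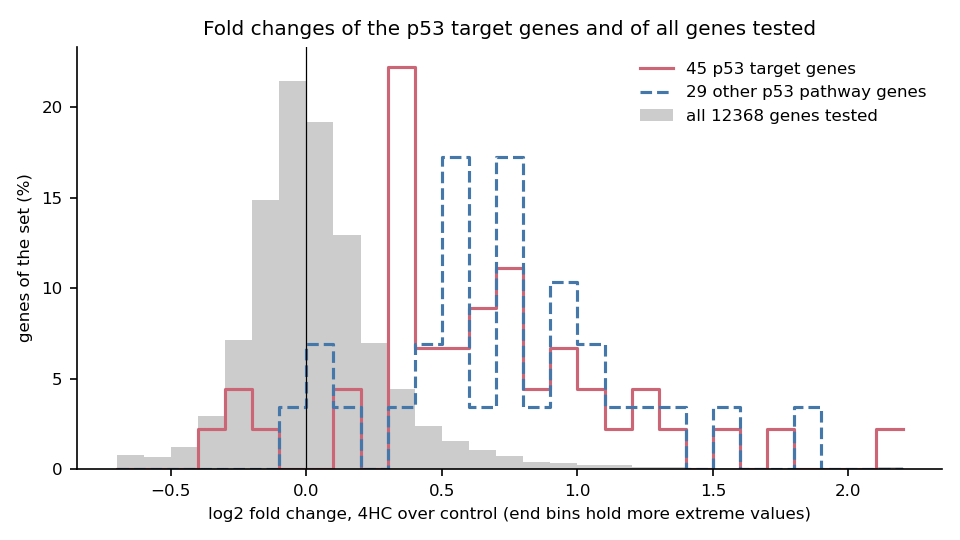
Distribution of log2 fold changes (x axis, 4HC over control) as the percentage of genes in each bin (y axis) for the 45 p53 target genes (red line), 29 other p53 pathway genes (dashed blue line) and all 12368 genes tested (grey). Both lines lie mostly to the right of the grey bars, with medians of 0.61 and 0.72 against 0.00.

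In 41 of the 45 tested genes the 3 4HC samples lay above the 3 control samples without overlap, against 23.4% of all genes tested. They lay below them in 3 of the 45, a smaller share than the 21.9% of all genes tested. These were the same genes that were called higher and lower from these samples, so the lack of overlap is not separate support. Most rises were moderate. A rise of 1.5-fold or more was found in 24 of the 45 genes, against 3.14% of all genes tested. By the rule of the study's methods, a fold change of at least 2 with an unadjusted p under 0.05, 9 genes were higher (edgeR), against 1.02% of all genes tested. The study itself used DESeq2 and reported many more genes in each direction than the rule gave here. The count of 9 became 6 with limma on log2(TPM + 1) and 5 on log2(FPKM + 1), with no share over all genes computed on either scale. On the latter scale, LIF, APOBEC3C, SPATA18 and ACER2 did not reach 2-fold. No gene of the list was lower by that rule, and only 16 of the 12368 genes tested were, so this does not set the list apart. A further 15 genes rose by 1.2 to 1.5-fold, and RPS27L and BTG1 rose by less. The share of all genes in these ranges was not computed. Smaller rises were common, since 388 of the 2379 genes called higher rose by 1.5-fold or more. The lowest of the 3 4HC samples was replicate 1 in 15 of the genes that rose, replicate 2 in 11 and replicate 3 in 15. In cultures of many cells, more RNA of a gene in every cell and more cells that express it cannot be told apart.

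**Figure D2:**
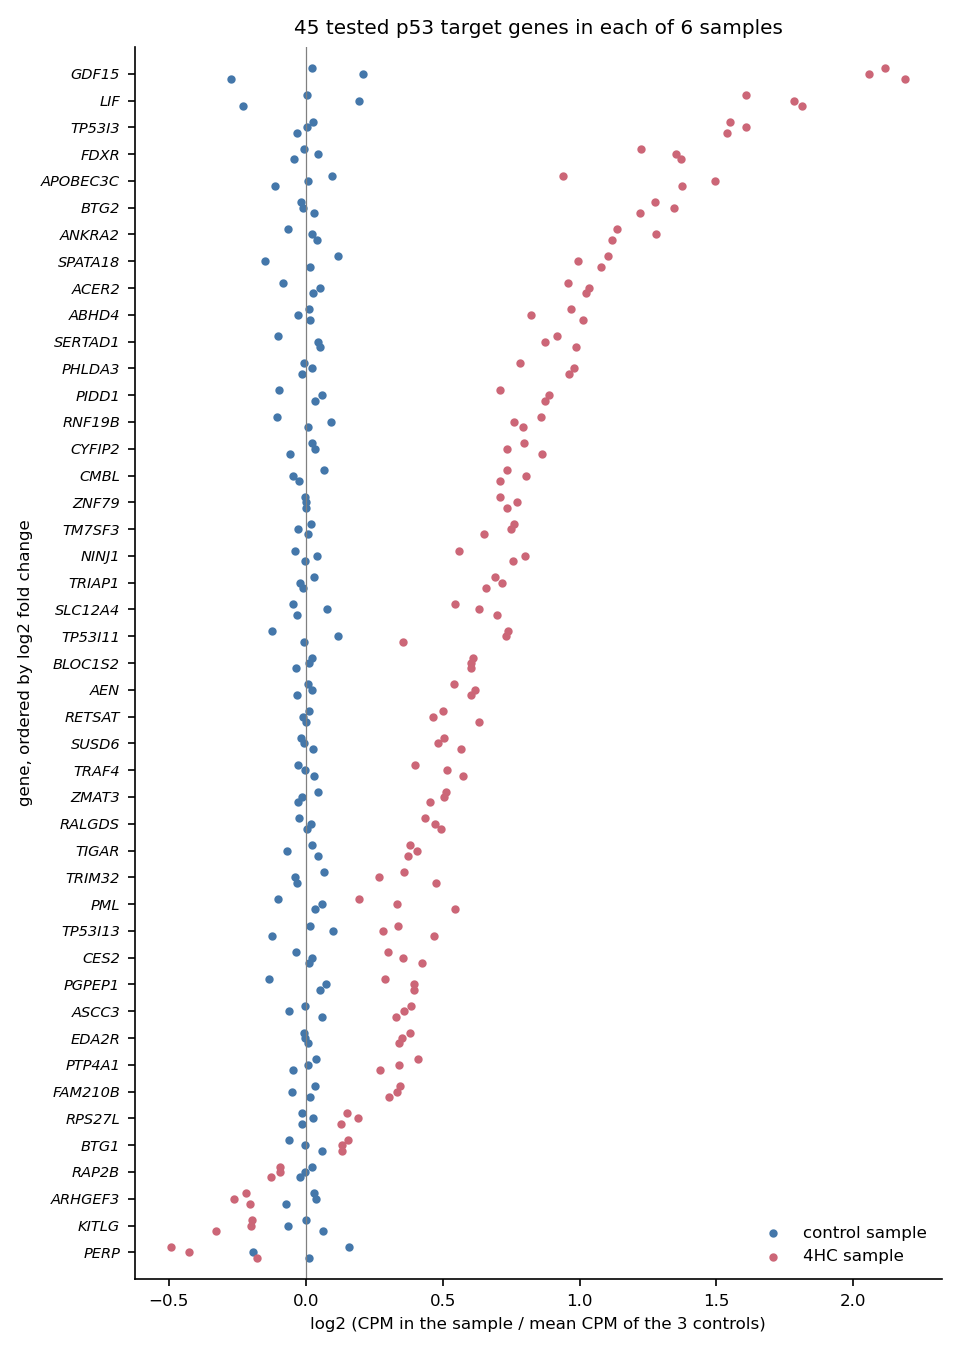
Level of the 45 tested genes in each sample, as log2 of the ratio of counts per 1000000 (CPM) to the mean of the 3 control samples (x axis), with genes ordered by fold change (y axis), control samples in blue and 4HC samples in red. The 4HC points lie right of all control points from GDF15 down to BTG1 and left of them in RAP2B, ARHGEF3 and KITLG, while those of PERP overlap.

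Promoters were searched for the consensus of the p53 half-site, an element of 10 bases that reads the same on both strands, from 250 bases before to 50 bases after the starts given by RefSeq for GRCh38.p14. Such windows were matched for 37 of the 45 tested genes. At least 1 exact half-site was found in 8 of the 37 genes (21.6%), and in 788 of 10180 tested genes with a window (7.74%). A pair of half-sites within 13 bases of each other, with at most 2 mismatches in all, was found in 4 of the 37 genes (10.8%), and in 348 of the 10180 (3.42%). A match describes the letters of the window and was not tested as a binding site. The 4 genes with a pair all rose, as did 41 of the 45 tested genes, and a link between a pair and a rise was not tested. Sites outside the window were not searched. The sequences of these 4 genes, ABHD4 (chr14:22598254-22598303, plus strand), AEN (chr15:88621286-88621339, plus strand), FDXR (chr17:74872995-74873045, minus strand) and SLC12A4 (chr16:67964075-67964141, minus strand), are shown with the half-sites in capitals.
ABHD4: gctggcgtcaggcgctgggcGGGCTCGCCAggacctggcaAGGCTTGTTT
AEN: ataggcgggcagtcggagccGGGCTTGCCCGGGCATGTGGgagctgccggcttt
FDXR: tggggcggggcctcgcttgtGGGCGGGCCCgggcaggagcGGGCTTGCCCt
SLC12A4: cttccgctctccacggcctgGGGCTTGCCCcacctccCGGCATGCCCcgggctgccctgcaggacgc

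The pair of AEN had no base between its half-sites and that of SLC12A4 had 1 mismatch, whereas the other 3 pairs had 2. The first marked base lay 26 bases before the start in ABHD4, 34 in AEN, 31 in FDXR and 69 in SLC12A4. A single exact half-site was found in RALGDS, RETSAT and RPS27L, which rose, and in RAP2B, which fell. Those of RPS27L (chr15:63157507-63157556, minus strand) and RAP2B (chr3:153162145-153162194, plus strand) are shown because the 2 genes moved in opposite directions, with the half-site 59 and 61 bases before the start.
RPS27L: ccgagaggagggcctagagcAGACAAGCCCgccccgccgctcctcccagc
RAP2B: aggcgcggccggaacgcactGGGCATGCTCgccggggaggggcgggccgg

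Secreted ligands held the 2 largest rises. GDF15 (NCBI Gene 9518, chr19:18374731-18389176), a stress cytokine of the TGF-beta superfamily that also acts on appetite, was measured at 5.55, 7.75 and 6.82 CPM (counts per 1000000, TMM-normalized) in the control samples and 30.6, 27.9 and 29.1 CPM in the 4HC samples. All 3 treated samples were far above the controls, which differed among themselves more than the treated ones did in proportion. The log2 fold change of GDF15 was 2.12 (SE 0.089, edgeR adjusted p = 3.16e-26), and the gene ranked 13 by size of rise among all genes tested. LIF (NCBI Gene 3976, chr22:30240453-30257487), a cytokine of the interleukin-6 family with a role in embryo implantation, was at 2.16, 2.89 and 2.53 CPM in control and 8.87, 8.70 and 7.71 CPM in 4HC. The gene was scarce in both groups, and its groups were still well apart. Its log2 fold change was 1.73 (SE 0.15, edgeR adjusted p = 4.47e-14), which became 0.99 on the log2(FPKM + 1) scale, where the added 1 shrinks changes of scarce genes.

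NINJ1, a membrane adhesion protein that also drives the rupture of the plasma membrane of dying cells, was at 48.7, 50.3 and 47.6 CPM in control and 82.6, 85.2 and 72.0 CPM in 4HC. One treated sample was lower than the other 2, and all 3 exceeded every control (log2 fold change 0.71, SE 0.052). EDA2R, a receptor of the TNF receptor family for ectodysplasin A2, rose less, from a mean of 107 to 138 CPM (SD 0.570 and 1.99, n = 3 each). KITLG (NCBI Gene 4254, chr12:88492793-88580471), the ligand of the receptor KIT by which granulosa cells act on oocytes, went the other way, with 132, 121 and 127 CPM in control and 101, 111 and 111 CPM in 4HC. Every treated sample of KITLG was below every control, although the gap was small (log2 fold change -0.24, SE 0.042, edgeR adjusted p = 8.12e-06). Thus 4 of the 5 ligands, receptors and adhesion genes were higher and 1 was lower.

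All 11 tested genes of mitochondria, redox and metabolism rose, and their median was 0.75 on the log2 scale. TP53I3 (NCBI Gene 9540, chr2:24077428-24085861), a quinone oxidoreductase that uses NADPH, was at 63.6, 65.3 and 66.2 CPM in control and 189, 198 and 191 CPM in 4HC. The samples of each group were close together and the groups far apart. It had the smallest adjusted p of the list, with a log2 fold change of 1.57 (SE 0.041, edgeR adjusted p = 2.95e-35). FDXR (NCBI Gene 2232, chr17:74862497-74872994), the ferredoxin reductase that passes electrons from NADPH to mitochondrial ferredoxins for steroid synthesis and for iron-sulphur clusters, was at 84.4, 89.7 and 86.5 CPM in control and 225, 222 and 203 CPM in 4HC. One 4HC sample was lower than the other 2 but exceeded each control by more than the whole range of the controls (log2 fold change 1.32, SE 0.041, edgeR adjusted p = 7.24e-32). The promoter of FDXR is among those printed above with a pair of half-sites.

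SPATA18 (NCBI Gene 132671, chr4:52051304-52097299), a protein of mitochondrial quality control also named Mieap, was at 8.20, 7.32 and 8.81 CPM in control and 17.1, 16.2 and 17.4 CPM in 4HC. ACER2 (NCBI Gene 340485, chr9:19408927-19455173), an alkaline ceramidase of the Golgi, was at 17.8, 18.2 and 16.5 CPM in control and 35.6, 35.8 and 34.0 CPM in 4HC. Neither gene had overlapping groups, and each was close to a doubling, with log2 fold changes of 1.06 (SE 0.095) and 1.01 (SE 0.066). ABHD4, a lipase of the N-acylphospholipid pathway whose promoter is shown above, was at 8.94, 8.68 and 8.93 CPM in control and 17.9, 15.7 and 17.3 CPM in 4HC. Its controls were almost level and its treated samples spread more (log2 fold change 0.94, SE 0.092). CMBL, a cytosolic hydrolase that activates ester prodrugs, was at 89.2, 87.9 and 95.1 CPM in control and 148, 159 and 151 CPM in 4HC. Again the groups stood clear of each other (log2 fold change 0.75, SE 0.041). The edgeR adjusted p of these 4 genes was between 2.64e-21 and 4e-12.

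The other 5 genes of metabolism rose by less than 1.5-fold. RETSAT, the retinol saturase, went from a mean of 47.1 to 68.2 CPM, and TIGAR, a fructose bisphosphatase that directs sugar into the pentose phosphate pathway, from 117 to 153 CPM. CES2, a carboxylesterase, went from 63.1 to 81.1 CPM and FAM210B, a mitochondrial membrane protein, from 71.8 to 90.1 CPM. PGPEP1, a pyroglutamyl peptidase, was at 37.7, 38.3 and 33.1 CPM in control and 47.8, 47.8 and 44.4 CPM in 4HC, a log2 fold change of 0.36 in counts. Per transcript length its mean was 10.2 TPM in control and 11.2 TPM in 4HC, and the call was lost there (limma on log2(TPM + 0.1), log2 fold change 0.14, adjusted p = 0.238).

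All 8 genes of growth control rose. BTG2 (NCBI Gene 7832, chr1:203305519-203312369), an antiproliferative partner of the CCR4-NOT deadenylase, was at 84.9, 82.6 and 82.3 CPM in control and 194, 212 and 202 CPM in 4HC. Its controls agreed within a few CPM, and the treated samples were all more than 100 CPM above them. The log2 fold change of BTG2 was 1.28 (SE 0.04, edgeR adjusted p = 7.67e-32), while its paralog BTG1 went only from a mean of 44.3 to 48.8 CPM (log2 fold change 0.14, SE 0.053, edgeR adjusted p = 0.0311). The call of BTG1 was lost with DESeq2 (adjusted p = 0.11), with limma on TPM, and when control replicate 2, control replicate 3 or any 1 of the 3 4HC samples was left out (edgeR adjusted p between 0.0617 and 0.166).

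SERTAD1, which binds CDK4, was at 18.1, 18.0 and 16.2 CPM in control and 34.5, 31.9 and 32.9 CPM in 4HC. PHLDA3, which competes with the kinase AKT for membrane lipids, was at 67.9, 69.7 and 68.2 CPM in control and 134, 135 and 118 CPM in 4HC. Both nearly doubled without overlap of the groups, with log2 fold changes of 0.93 (SE 0.067) and 0.91 (SE 0.046). TP53I11, a p53-inducible membrane protein of less certain function, was at 5.36, 5.85 and 4.95 CPM in control and 6.88, 8.94 and 9.0 CPM in 4HC. One treated sample of TP53I11 lay nearer the controls than the other 2 (log2 fold change 0.62, SE 0.13). SUSD6, TP53I13 and PTP4A1, a phosphatase also named PRL-1, rose by log2 fold changes of 0.52, 0.37 and 0.34.

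Of the 5 genes of death signalling and cell junctions, 4 rose and none by 2-fold. PIDD1, the scaffold on which caspase-2 is activated, was at 36.1, 36.7 and 32.9 CPM in control and 64.7, 65.3 and 57.7 CPM in 4HC. TRIAP1, a small protein that carries phosphatidic acid in mitochondria and restrains apoptosis, was at 57.2, 56.8 and 58.8 CPM in control and 90.8, 94.7 and 93.0 CPM in 4HC. A gene that promotes cell death and one that restrains it were thus both higher, with log2 fold changes of 0.83 (SE 0.056) and 0.69 (SE 0.045). AEN, the apoptosis-enhancing nuclease, was at 129.7, 135 and 134 CPM in control and 202, 204 and 193 CPM in 4HC. Its rise was close to 1.5-fold, with no overlap (log2 fold change 0.59, SE 0.037). TRAF4, an adaptor of receptor signalling, went from a mean of 68.3 to 96.4 CPM. PERP, a desmosome protein, was at 2.34, 2.03 and 2.59 CPM in control and 2.05, 1.73 and 1.65 CPM in 4HC. The groups of PERP overlapped, and the 95% interval of its log2 fold change, -0.79 to 0.07, held both a fall and no change.

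The 7 tested genes of RNA, chromatin and nucleic acids all rose. APOBEC3C (NCBI Gene 27350, chr22:39014236-39020586), a cytidine deaminase that restricts viruses, was at 1.36, 1.48 and 1.57 CPM in control and 3.80, 4.13 and 2.82 CPM in 4HC. One treated sample was clearly below the other 2, and the gene was scarce throughout. Its log2 fold change of 1.28 had a wide error (SE 0.21, edgeR adjusted p = 1.76e-06). Its interval overlaps that listed for APOBEC3F, a near relative, so that reads may have been divided between them. ANKRA2 (NCBI Gene 57763, chr5:73552190-73565667), an ankyrin repeat protein that binds histone deacetylases, was at 12.3, 12.2 and 11.5 CPM in control and 26.0, 29.1 and 26.4 CPM in 4HC. It more than doubled in every treated sample relative to the highest control (log2 fold change 1.18, SE 0.077, edgeR adjusted p = 1.83e-18). ZNF79, a zinc finger protein, was at 12.7, 12.7 and 12.7 CPM in control and 21.1, 21.6 and 20.7 CPM in 4HC. Its controls were level to the first decimal (log2 fold change 0.74, SE 0.078).

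The other 4 genes of this group rose by less than 1.5-fold. ZMAT3, an RNA-binding regulator of splicing, went from a mean of 103 to 145 CPM and ASCC3, a helicase of ribosome rescue and alkylation repair, from 219.8 to 282 CPM. PML, which builds nuclear bodies, went from 25.9 to 33.4 CPM (SD 1.52 and 4.09, n = 3 each). RPS27L, a paralog of a ribosomal protein, changed least of these, from 327 to 364 CPM (log2 fold change 0.16, SE 0.033). PRDM1 had 1, 0 and 0 counts in control and 0, 0 and 2 in 4HC, and 0 counts in a sample allowed up to 0.186 CPM in the shallowest library, for counting error only.

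Both tested ubiquitin ligases rose. RNF19B was at 19.5, 20.6 and 18.0 CPM in control and 33.6, 32.8 and 35.1 CPM in 4HC, with no overlap (log2 fold change 0.81, SE 0.066). TRIM32 went from a mean of 27.7 to 35.8 CPM. TRIM22 had 4, 4 and 8 counts in control and 4, 9 and 11 in 4HC, too few for a test.

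Among genes of small GTPases, actin, trafficking and transport, 5 of 7 rose and 2 fell. CYFIP2, a subunit of the WAVE complex that starts actin branching, was at 133, 142 and 141 CPM in control and 251, 230.1 and 241 CPM in 4HC. TM7SF3, a multi-pass membrane protein, was at 167, 163 and 168 CPM in control and 261, 279 and 281 CPM in 4HC. These 2 genes rose with narrow errors, by log2 fold changes of 0.80 (SE 0.038) and 0.72 (SE 0.036). SLC12A4, a potassium chloride cotransporter, was at 69.3, 74.8 and 68.6 CPM in control and 115, 110.0 and 103 CPM in 4HC. BLOC1S2, a subunit of a complex that sorts cargo to lysosome-related organelles, was at 88.4, 91.3 and 92.0 CPM in control and 138, 138 and 138 CPM in 4HC. For both the rise was close to 1.5-fold in every treated sample (log2 fold changes 0.63 and 0.61), and the treated samples of BLOC1S2 were level. RALGDS, an exchange factor for Ral GTPases, rose by 0.47.

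RAP2B (NCBI Gene 5912, chr3:153162226-153170627), a small GTPase, was at 599.8, 607 and 618 CPM in control and 557, 571 and 570.5 CPM in 4HC. ARHGEF3 (NCBI Gene 50650, chr3:56727419-57080101), an exchange factor for small GTPases, was at 103, 111 and 111 CPM in control and 94.1, 90.4 and 93.3 CPM in 4HC. In both genes each treated sample lay below each control, by little. The log2 fold change was -0.10 for RAP2B (SE 0.031, edgeR adjusted p = 0.00574) and -0.23 for ARHGEF3 (SE 0.042, edgeR adjusted p = 1.9e-05). The call of RAP2B was lost with limma on log2(FPKM + 1) (adjusted p = 0.0644). TSPAN11, a tetraspanin, had 6, 6 and 5 counts in control and 12, 11 and 6 in 4HC and was not tested.

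**Figure D3:**
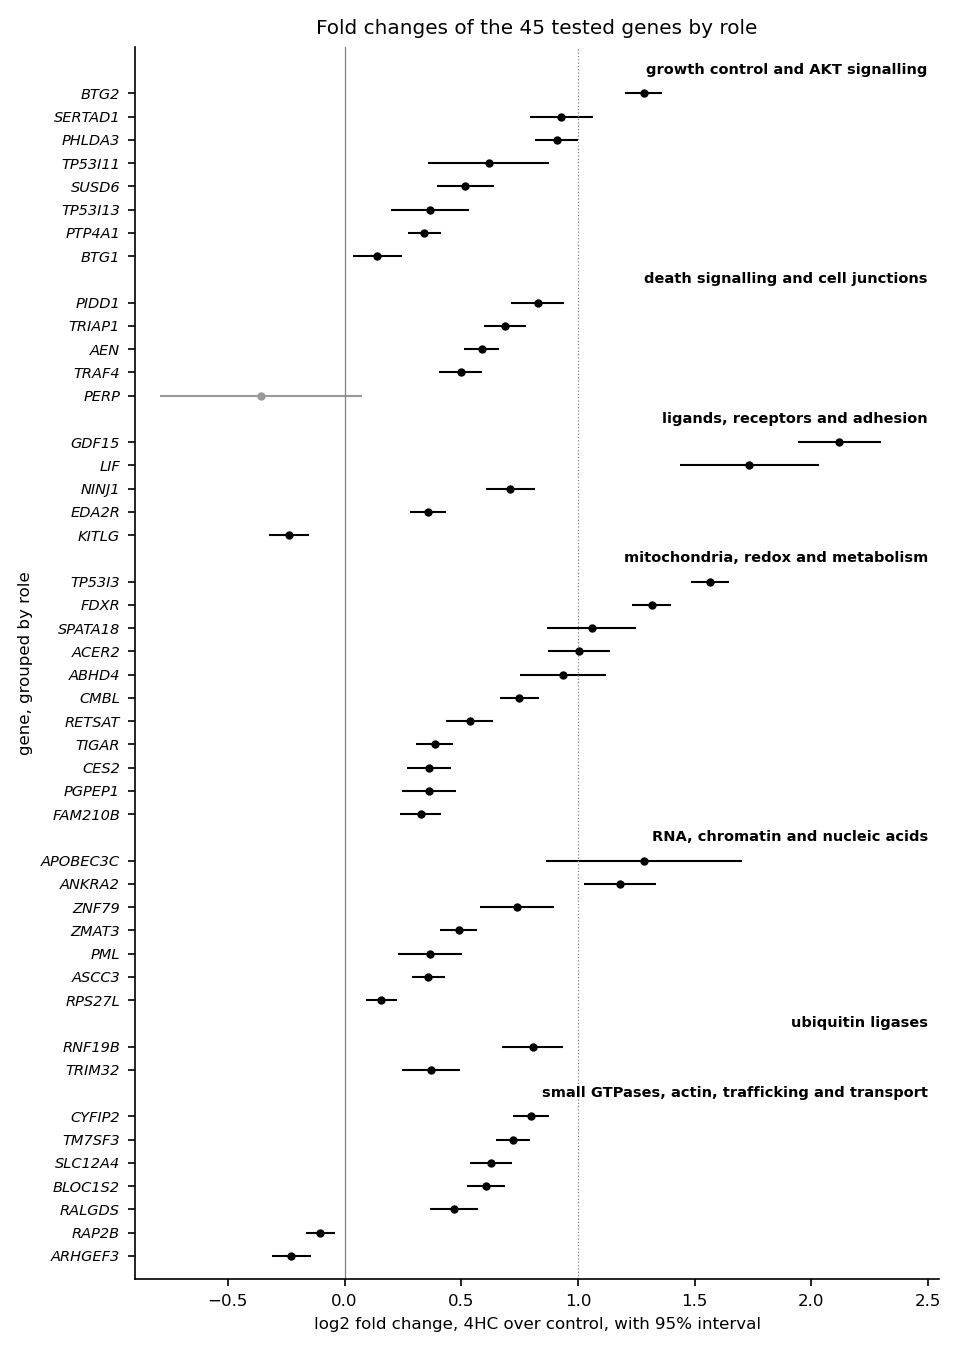
Log2 fold change of 4HC over control (x axis) with its 95% interval for the 45 tested genes, grouped by role (y axis), with genes called in black and PERP, not called, in grey. The dotted line marks a 2-fold rise, which GDF15, LIF, TP53I3, FDXR, APOBEC3C, BTG2, ANKRA2, SPATA18 and ACER2 reach.

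Per transcript length, the list took up a larger share of the sequenced RNA in 4HC. TPM is relative, so the amount of RNA per cell is not shown. The summed TPM of the 45 genes was between 1631 and 1659 in the control samples and between 2564 and 2629 in the 4HC samples, out of 1000000 per sample. In control, 2 of the genes were above 100 TPM, RAP2B at 117 and TRIAP1 at 105 TPM. In 4HC there were 10, of which the highest were TP53I3 at 282, FDXR at 216 and TRIAP1 at 167 TPM, followed by NINJ1 at 130.2 (SD 11.2) and BTG2 at 129 TPM (SD 4.68). The means of NINJ1 and BTG2 differed by less than their SD. GDF15, with the largest fold change, reached only 49.3 TPM, and LIF and APOBEC3C stayed at 3.70 and 2.36 TPM.

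**Figure D4:**
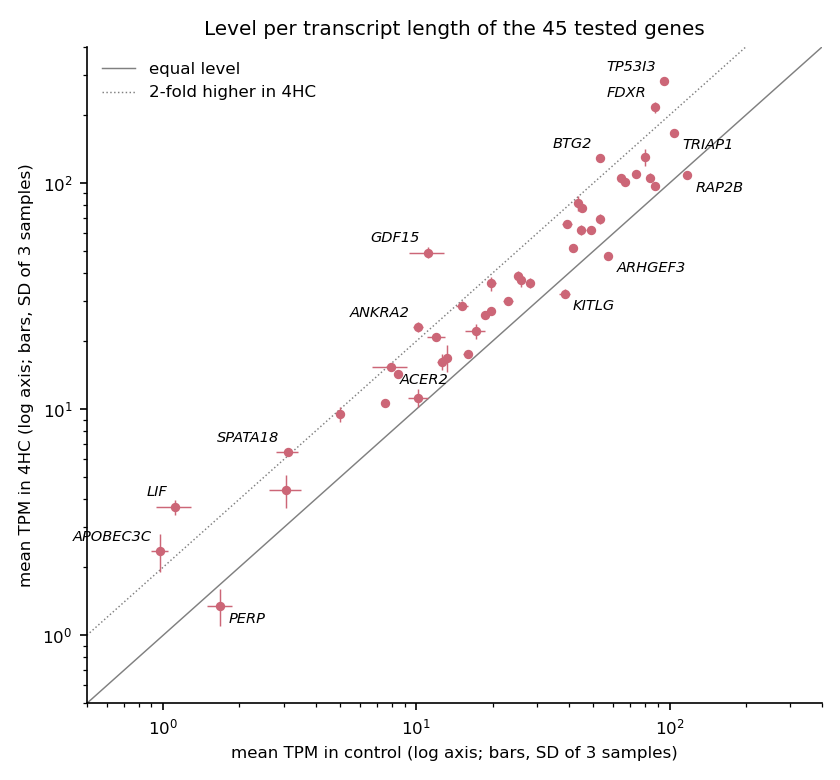
Mean TPM of the 45 tested genes in control (x axis, log scale) and in 4HC (y axis, log scale), with bars for the SD of 3 samples and lines for equal level and a 2-fold rise. TP53I3 and FDXR lie high and above the 2-fold line, at 282 and 216 TPM in 4HC, LIF and APOBEC3C are scarce, and RAP2B, ARHGEF3, KITLG and PERP lie below the line of equal level.

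The other genes of the p53 pathway were compared as a list of 32, also chosen with earlier results known, of which 29 could be tested. Of these, 25 were higher in 4HC, 0 were lower and 4 were not called, with a median log2 fold change of 0.72 against 0.61 for the 45 genes above (edgeR, with the same backgrounds of 19.2% and 17.1%). The estimate below 0 was that of POLK, at -0.0066 (edgeR unadjusted p = 0.917), and DESeq2 also called 0 lower. CDKN1A, the inhibitor of cyclin-dependent kinases, had the largest rise (log2 fold change 1.80, SE 0.033), followed by the kinase PLK3 (1.51), the autophagy regulator DRAM1 (1.34), the repressor E2F7 (1.25) and the BCL2 family member PMAIP1 (1.12). MDM2, the ligase that degrades p53, went from a mean of 446 to 879 CPM (log2 fold change 0.98, SE 0.030). GDF15, at 2.12, thus rose by more on the log2 scale than CDKN1A, though this difference between genes was not tested.

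The transcript table separated the members further, with counts that its makers' program divides among transcripts sharing reads. Of 222 transcripts of these genes with a count, 149 could be tested, 127 of them with an estimate above 0. In 4HC, 26 were higher, in 23 genes, and 0 were lower, against 0.706% and 0.587% of the 42216 transcripts tested (edgeR, adjusted over all of them). At an unadjusted p under 0.05, 57 were higher and 7 lower. The share over all transcripts was not computed for these counts or for the 127, so they are not set against a background. The count of 26 fell to between 7 and 16 when any 1 sample was left out and to 0 with the replicate number as a block, so single transcripts were resolved far less well than genes.

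In TP53I3, NM_147184 went from a mean of 43.0 to 134 CPM and NM_004881 from 14.6 to 42.4 CPM, so that the share of NM_147184 in the counts of the gene was 65.5% in control and 69.1% in 4HC. In FDXR, NM_024417 went from 73.5 to 188 CPM and made up 84.0% and 86.2% of the counts. The main transcript of GDF15, NM_004864, went from 6.12 to 28.7 CPM, while XM_024451789 stayed at 0.635 and 0.781 CPM. In CYFIP2 both main transcripts rose, NM_001037333 from 71.6 to 131 CPM and XM_011534516 from 52.7 to 86.1 CPM. The transcripts that rose most in CPM in these genes were those already most used in the controls. The single transcript of BTG2, NM_006763, rose as the gene did, from 83.9 to 204 CPM.

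**Figure D5:**
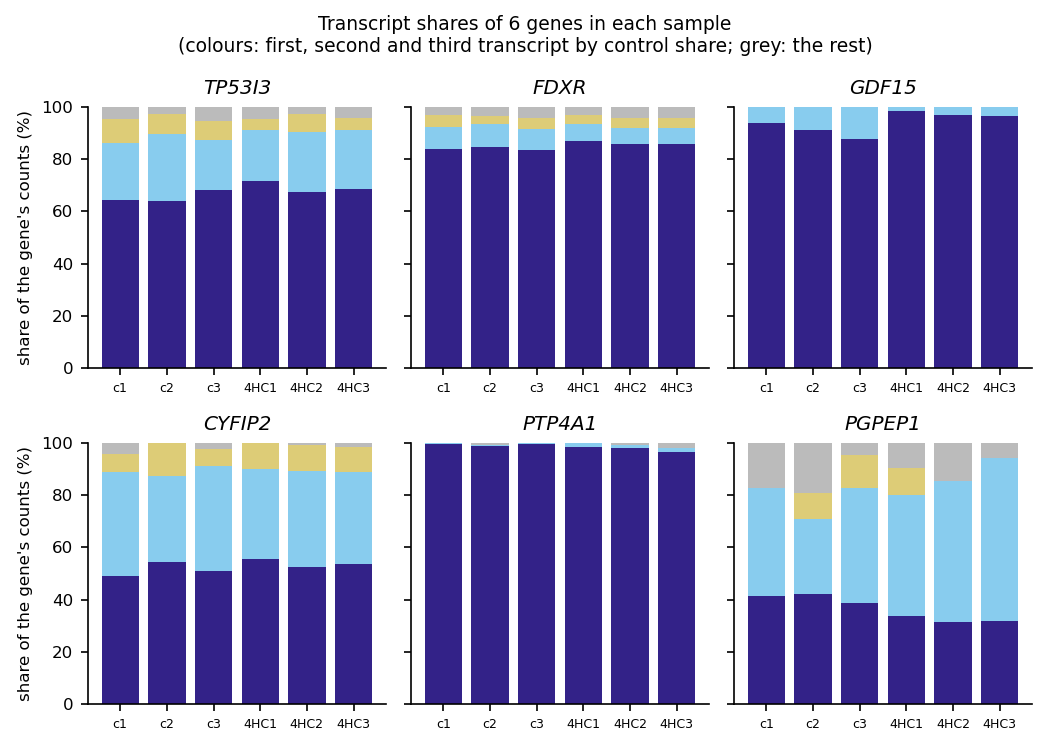
Share of a gene's counts (y axis, %) taken by its transcripts in each of the 3 control (c1 to c3) and 3 4HC samples (x axis), with the 3 transcripts of the largest control share in colour and the rest in grey. The bars of TP53I3, FDXR and CYFIP2 are alike in both groups, while the share of the second transcript of PGPEP1 is 28.9% to 43.9% in control and 46.3% to 62.6% in 4HC.

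Whether the transcripts of a gene changed to different degrees was tested in 30 of the genes with at least 2 tested transcripts. No gene was called, against 1.02% of the 8428 genes tested in the same way, and 4 had an unadjusted p under 0.05 (edgeR). The share of all genes under that unadjusted threshold was not computed, so the 4 are not set against a background. The smallest adjusted p was 0.0649, for PTP4A1, whose minor transcript NM_001385267 was at 0.559, 0.557 and 1.10 CPM in control and 4.39, 3.22 and 4.82 CPM in 4HC. Its main transcript NM_003463 went from a mean of 233 to 290 CPM and kept 97.8% of the counts in 4HC. Without 4HC replicate 1 the test of PTP4A1 gave an edgeR adjusted p of 0.00273, and without 4HC replicate 3 that of RALGDS gave 0.0237. In PGPEP1, NM_017712 was at 15.7, 11.1 and 14.7 CPM in control and 22.3, 26.0 and 28.0 CPM in 4HC, while NM_001300927 was at a mean of 14.9 and 15.2 CPM. Neither transcript of PGPEP1 was called (edgeR adjusted p = 0.0824 and 0.996).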

How the data were processed

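Bulk RNA sequencing of 3 control samples and 3 4HC samples of COV434 cells was analysed, with groups taken from the sample labels. The reads were filtered with SOAPnuke, and the submitters' processing notes name HISAT2, Bowtie2, RSEM 1.3.1, DESeq2 1.4.5 and the build GRCh38.p13 without giving their roles. The authors deposited an expected count, an estimate of reads that need not be whole, for each of 16798 genes and 79213 transcripts (85.5% of those of genes were whole). The TPM values, as deposited, are relative to transcript length and sum to 1000000 in a sample. For FPKM the authors divided by gene length and depth. The columns of the authors' own fold changes, p-values and q-values were not used, and a second gene table with the same values was not used.

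Rounded expected counts entered edgeR 4.0.16 under R 4.3.3 (TMM normalization, filterByExpr, quasi-likelihood test, condition as the only term), with Benjamini-Hochberg adjustment over all genes or transcripts tested. CPM values are TMM-normalized. Transcript use was tested with edgeR's diffSpliceDGE. The tests were first run on simulated counts with known changes, which did not model the division of shared reads among transcripts. Alternatives used DESeq2 1.42.0, limma 3.58.1, other scalings and filters, the replicate number as a block, and leaving out 1 sample at a time. No samples of a group agreed within counting noise (chi-square per gene of 1.70 to 2.46), so none was taken as a copy of another library, which does not show that they were separate cultures. Promoter windows came from RefSeq (GRCh38.p14) and were read with Python 3.11.15. Their coordinates come from that table, whereas gene coordinates are those deposited.

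The members, their roles and the other lists were chosen with earlier results of these data known. Values of every sample were given for genes called with a change of 1.5-fold or more, for those called lower and for those under 10 summed counts. PERP, PGPEP1, TRIM22, TSPAN11 and the transcripts of PTP4A1 and PGPEP1 were shown after their values were seen. A gene that the naming rule covers is not reported here. Counts limit precision to counting error below about 1 CPM, where 3 counts in a library amount to between 0.18 and 0.186 CPM.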

Additional observations from a re-analysis of the deposited data

How the results depend on the processing

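Of the 45 tested genes, 42 kept the side of the threshold and the direction of their log2 fold change under all of the 15 alternatives, and none of the 45 was reversed. The exceptions were BTG1, PGPEP1 and RAP2B, with the values given above. The number of genes called higher was 39 to 41 under all alternatives and that of genes called lower 2 or 3. The count of genes with a rise of 2-fold or more was 5 with limma on log2(FPKM + 1), 6 on log2(TPM + 1) and 8 on log2(TPM + 0.1). It was 8 to 10 without any 1 sample, and the share over all genes was not computed for these alternatives. The number of member transcripts called higher was 7 to 16 without any 1 sample and 0 with the replicate number as a block, which leaves fewer residual degrees of freedom. With at least 10 counts in every sample, 1 member transcript was called lower, NM_001324205 of EDA2R (log2 fold change -1.98, edgeR adjusted p = 0.0481). The number of genes with a change in transcript use was 0 to 1 without any 1 sample. The replicate numbers of the 2 groups were not treated as pairs, since deviations of same-numbered samples correlated at 0.0087, 0.069 and 0.030, and not every sample correlated best with its own number. The block changed no call of a gene in the list. DESeq2 called 1720 genes higher and 1637 lower of all tested, against 2379 and 2118 with edgeR, and 40 and 3 in the list. Groups of 3 were too small to test for outlying samples. Counts limited the genes near 1 CPM, such as APOBEC3C.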
